A study of Mus musculus with 12 samples.

Results

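Treated cells of mice lacking Stat5a and Stat5b were compared with untreated cells of the same genotype, gene by gene, on 6 expression arrays. The arrays were chosen by their labels alone, knockout with treatment (3 arrays) and knockout without (3 arrays), and they are 6 of the 12 arrays of a study of the role of these genes in granulocyte formation driven by GM-CSF. The remaining 6 are 3 treated and 3 untreated control arrays, from mice that keep both genes. Per the design text the genes were missing from blood cells, but the promoter that drove the deletion, the age and strain of the mice, the time and dose of treatment and the number of mice behind an array are not given in the sources used here. The treatment field says only with or without "GMP", and since titles of untreated arrays carry the same letters, the agent is called the treatment throughout. The titles place the arrays on 3 array dates, each with 1 array of every group, so each knockout treated array has an untreated partner of its date. The knockout treated array of date 2 differs from its date partners in a number tag of its title that the labels do not explain. Nothing says whether the arrays of a group stand for separate animals, and the p-values therefore reflect the spread among these samples, which may be technical.

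GM-CSF is a cytokine that keeps myeloid progenitors alive and drives them to divide and to mature into granulocytes and macrophages. Its receptor joins a private alpha chain (Csf2ra) to a shared beta chain (Csf2rb), which carries the kinase JAK2. JAK2 activates the transcription factors STAT5A and STAT5B, and the same receptor also feeds the MAP kinase, PI3 kinase and NF-kB pathways, which do not run through STAT5. Cish, Socs2 and Pim1 are standard STAT5 target genes. Granulocyte-monocyte progenitors, the bone marrow cells from which neutrophils and monocytes arise, are known for high levels of the primary granule genes Mpo and Elane and of the receptor gene Csf1r.

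Signals are MAS5 intensities on a linear scale, set to a common trimmed mean near 500.003 on every array, and where 3 values are given they stand in the order of dates 1, 2 and 3. The arrays of date 2 stood apart: the knockout Actb signal at the 3' end was 28.7 times (untreated) and 20.8 times (treated) the signal at the 5' end, against 1.14 to 1.51 on the 4 other knockout arrays, and in control cells it was 59.5 times (untreated) and 266 times (treated) on date 2, against 1.22 to 2.05 on the other control arrays. Both genes named in the deletion were dim on all 6 knockout arrays. Stat5a read 33, 101 and 48.1 without treatment and 44.3, 37 and 26.7 with it, against 1147, 905 and 833 and 872, 375 and 713 in control cells. Stat5b read 24, 48.7 and 51.2 and then 28.4, 1.80 and 60.5, against 1531, 515 and 1313 and 1178, 287 and 1046 in control cells. Every knockout array lay below every control array for both genes, though which part of either gene was removed is not stated. Of 14 progenitor marker genes 13 were tested, 0 were called changed and only 2 had a positive change. Their summed signal was 99624 to 224634 without treatment and 93028 to 165085 with it. Among the marker lists of other lineages 4 genes were called, each named after its value was seen: the mast cell gene Cpa3 was lower, and the stromal gene Pdgfrb and the T and NK cell genes Gzmb and Il7r were higher. The 3 tested T and NK markers, of 11 listed, had a summed signal of 201 to 352 without treatment and 1061 to 1825 with it, the 5 tested stroma and endothelium markers 563 to 1071 and 881 to 2202, and the 7 tested mast cell and basophil markers 9376 to 15931 and 6021 to 15716. The 4 calls were lost without the block (adjusted p = 0.340, 0.394, 0.355 and 0.151 in the order named). Of the defining T cell genes Cd3e, Cd3g and Cd3d did not pass the filter on dim signals. The part of such cells in the results below was not tested. Leaving out 1 array lost the call of Cpa3 (lowest and highest adjusted p 0.0556 and 0.191, for the control untreated array of date 3, the control treated arrays of dates 1 and 3, all knockout untreated arrays and the treated arrays of dates 2 and 3), of Pdgfrb (0.0522 to 0.0668, for the knockout untreated arrays of dates 1 and 2 and the treated arrays of dates 1 and 3), of Gzmb (0.0573 to 0.0692, for the untreated arrays of dates 1 and 2 and the treated arrays of dates 2 and 3) and of Il7r (0.112 to 0.133, for the untreated and the treated arrays of dates 2 and 3). In bulk samples such as these, fewer cells of a type and less RNA per cell cannot be told apart.

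Promoter sequences of 7 genes on which the results turn are shown to set the response beside known motif letters, taken from RefSeq (build GRCm38.p6), 5′ to 3′ on the gene's strand, from 250 bases before to 30 after the start site. The 3 promoters of inflammatory genes carry in capitals the kappa B consensus bound by NF-kB or the interferon response element, the next 2 the amino acid response element bound by ATF4 (TGATGNAA), and the last 2 the STAT motif (TTCNNNGAA). Capitals mark only these motifs: Slc7a11 also holds a STAT motif (at -183), and Cxcl10 and Rsad2 each an AP-1 motif (at -74 and -87), left in lower case.
Cxcl10: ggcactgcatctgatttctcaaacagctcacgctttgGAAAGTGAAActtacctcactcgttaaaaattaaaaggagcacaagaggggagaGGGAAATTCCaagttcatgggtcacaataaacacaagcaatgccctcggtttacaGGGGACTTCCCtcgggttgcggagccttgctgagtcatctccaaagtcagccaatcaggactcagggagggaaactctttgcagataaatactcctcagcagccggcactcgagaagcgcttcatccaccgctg
Rsad2: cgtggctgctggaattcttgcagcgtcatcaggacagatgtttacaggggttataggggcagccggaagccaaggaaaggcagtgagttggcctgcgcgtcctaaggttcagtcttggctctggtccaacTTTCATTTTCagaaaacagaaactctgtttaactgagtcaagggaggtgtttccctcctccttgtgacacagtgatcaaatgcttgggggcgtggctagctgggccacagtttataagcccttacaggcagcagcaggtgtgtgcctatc
Saa3: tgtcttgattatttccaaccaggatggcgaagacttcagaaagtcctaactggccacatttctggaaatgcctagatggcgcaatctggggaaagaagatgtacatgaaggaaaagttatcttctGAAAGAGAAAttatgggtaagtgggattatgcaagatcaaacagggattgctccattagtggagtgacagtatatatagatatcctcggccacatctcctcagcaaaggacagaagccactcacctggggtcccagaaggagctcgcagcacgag
Slc7a11: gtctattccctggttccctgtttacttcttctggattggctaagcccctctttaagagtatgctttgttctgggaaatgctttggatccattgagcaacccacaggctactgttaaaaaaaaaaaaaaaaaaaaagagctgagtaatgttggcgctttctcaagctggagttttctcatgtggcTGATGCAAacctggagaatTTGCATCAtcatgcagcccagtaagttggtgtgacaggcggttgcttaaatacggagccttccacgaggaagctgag
Chac1: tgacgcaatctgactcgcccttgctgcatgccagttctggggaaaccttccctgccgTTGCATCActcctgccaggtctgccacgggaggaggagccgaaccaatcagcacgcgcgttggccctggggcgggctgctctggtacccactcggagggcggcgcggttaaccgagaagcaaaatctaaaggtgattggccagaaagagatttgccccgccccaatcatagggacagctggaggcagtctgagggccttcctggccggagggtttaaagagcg
Cish: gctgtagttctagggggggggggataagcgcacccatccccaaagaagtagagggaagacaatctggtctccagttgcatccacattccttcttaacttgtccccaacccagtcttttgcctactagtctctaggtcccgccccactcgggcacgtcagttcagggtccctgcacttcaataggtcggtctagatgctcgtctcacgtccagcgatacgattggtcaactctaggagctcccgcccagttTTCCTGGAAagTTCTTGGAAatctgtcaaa
Il31ra: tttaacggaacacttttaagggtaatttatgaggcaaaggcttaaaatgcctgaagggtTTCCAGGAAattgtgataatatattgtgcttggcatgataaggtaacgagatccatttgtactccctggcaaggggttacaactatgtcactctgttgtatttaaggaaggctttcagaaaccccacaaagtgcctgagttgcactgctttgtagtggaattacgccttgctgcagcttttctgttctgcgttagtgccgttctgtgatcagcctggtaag

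Cxcl10 (chr5:92348860-92349139, minus strand) holds the interferon response element at position -213 and the kappa B consensus at -159, -104 and -103, of which the last 2 overlap. Rsad2 (chr12:26456423-26456702, minus strand) and Saa3 (chr7:46715647-46715926, minus strand) each hold 1 interferon response element, at -120 (on the other strand) and -125. Slc7a11 (chr3:50443584-50443863, minus strand) holds the amino acid response element at -66 and, on the other strand, at -47. Chac1 (chr2:119350992-119351271, plus strand) holds it at -193, on the other strand. Cish (chr9:107296409-107296688, plus strand) holds 2 STAT motifs side by side at 1 and 12, and Il31ra (chr13:112580633-112580912, minus strand) holds 1 at -191. Position 1 is the start site, and both strands were searched.

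The shares of promoters with each motif were counted in windows of 300 bases for 9594 of the 11815 tested genes. TGATGNAA was in 2.36% of all windows, in 5.20% of those of genes called higher on treatment (33 of 635) and in 2.07% of those called lower (9 of 435). The kappa B consensus was in 10% of all windows, 14% of those called higher and 7.36% of those called lower, and the interferon response element in 3.07%, 4.57% and 2.07%. TTCNNNGAA was in 6.84% of all windows, in 8.03% of those called higher and in 8.28% of those called lower. The AP-1 motif TGANTCA was in 5.13%, 8.82% and 6.21%. These shares describe letters in a window, and they were not tested.

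Treatment changed a broad set of genes in cells without STAT5. With limma over all 12 arrays and array date as a block, 1321 of 11815 genes passed an adjusted p of 0.05 (11.2%), 795 higher (6.73%) and 526 lower (4.45%), while the median gene moved by -0.02 on the log2 scale. The changes are on the scale log2(signal + 13), which understates the change of a dim gene. Rises were larger than falls: 257 genes rose by 2 or more (log2) and 34 fell by as much, and at a size of 4 the counts were 41 and 3. The sign was the same on all 3 dates for 1320 of the 1321, which calling genes on these same arrays favours. Signals of the 3 treated arrays lay wholly above those of the 3 untreated arrays for 11% of all genes tested and wholly below for 9.9%. Among the 1321 called genes 1067 did not overlap. A lack of overlap in a called gene therefore mostly follows from the call and is no separate support for it. Leaving out 1 knockout array lowered the 1321 to 656 (untreated, date 1), 678 (untreated, date 2), 470 (untreated, date 3), 677 (treated, date 2) or 612 (treated, date 3). It was 293 without the block, 673 in a fit of the 6 knockout arrays alone, 797 with no filter on dim signals and 2293 with array weights.

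**Figure D1:**
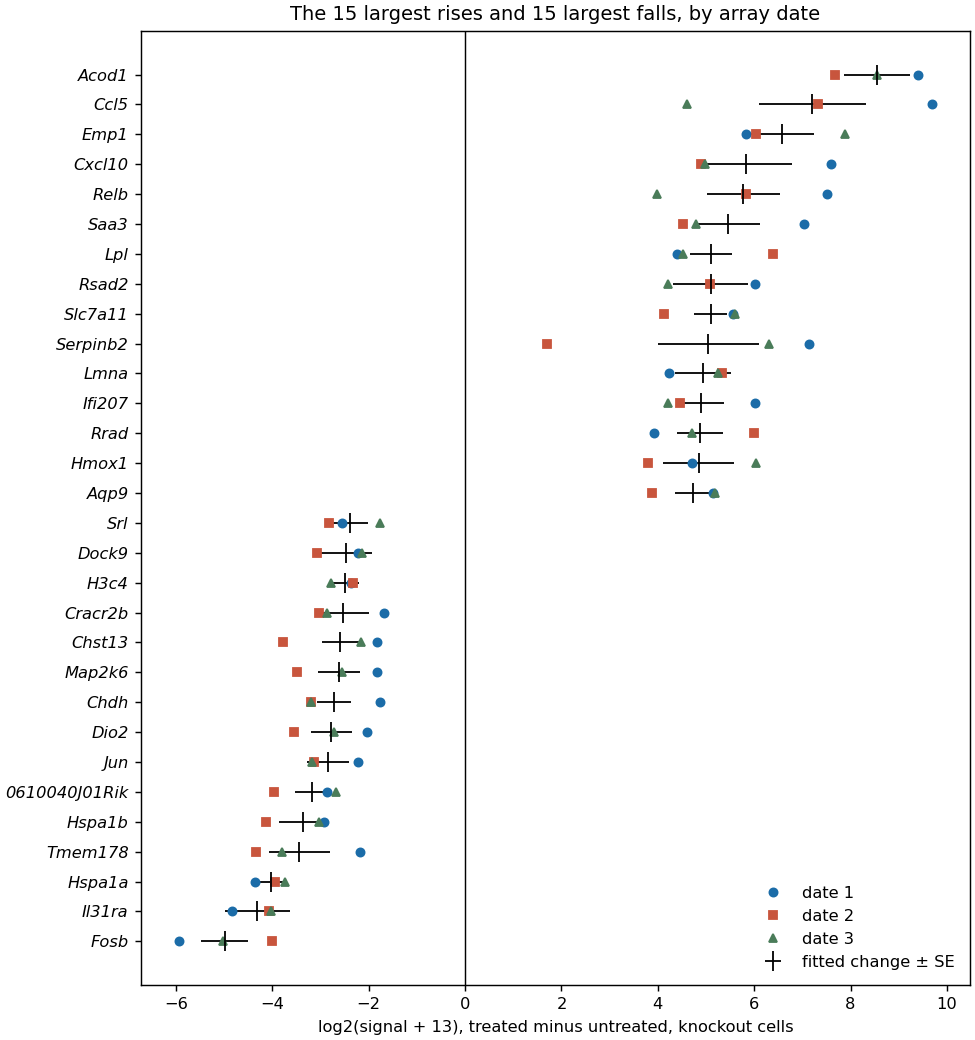
Log2 change (treated minus untreated, log2 of signal + 13, horizontal axis) of the 15 largest rises and 15 largest falls called in knockout cells; coloured points are the 3 array dates and black marks the fitted change ± SE. All points of a gene lie on the same side of 0 because genes were chosen only if the sign was the same on all 3 dates. Ccl5 on date 3 lies well below its fitted value.

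The largest single change was in Acod1, which encodes the enzyme that makes itaconate in activated macrophages. It read 4.63, 8.98 and 4.01 without treatment and 11829, 4519.8 and 6371 with it. The untreated signals are at the bottom of the scale on all dates and the treated signals are among the bright ones, so the log2 change of 8.54 ± 0.68 (SE) depends on the constant and was 10.06 with a constant of 1 and 6.93 with 52. Emp1, an epithelial membrane protein gene, went from 1.56, 70.1 and 23.2 to 811, 5428 and 8576, a change of 6.58 ± 0.66 (SE). Its treated array of date 1 is the dimmest of the 3, but still lies above all untreated arrays. Aqp9, a channel for glycerol and water, read 87, 111 and 73.5 and then 3543, 1804 and 3153 (4.74 ± 0.39 (SE), adjusted p = 0.00027). Lmna (lamin A), Rrad (a small GTPase) and Ifi207 (an interferon-inducible gene of the Ifi200 family) rose by 4.94, 4.87 and 4.90. The smallest adjusted p of all genes, 2.42e-05, belonged to Clec4d, a C-type lectin receptor of myeloid cells.

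Among the 28 gene lists described here, the shares of members called higher were largest in the amino acid and integrated stress response (15 of 28) and the NF-kB genes (11 of 21), and the shares called lower were largest in glycolysis (5 of 21) and ribosome biogenesis (9 of 51).

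**Figure D2:**
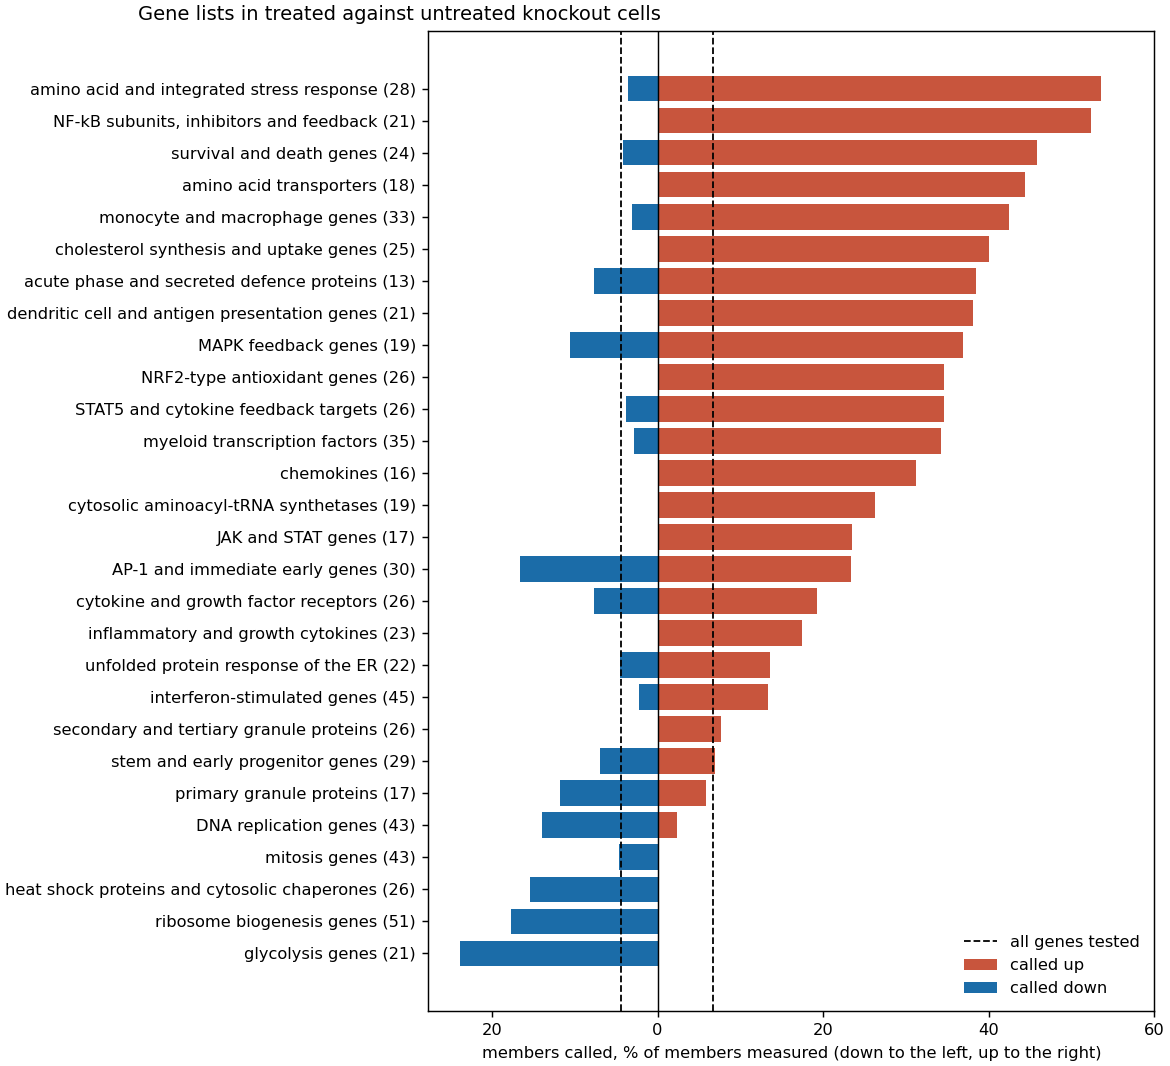
Share of measured members of each gene list called lower (blue, to the left) or higher (red, to the right) on treatment in knockout cells, in percent of the members tested (number in brackets). Dashed lines mark the shares over all genes tested, 4.45% lower and 6.73% higher.

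NF-kB is a family of dimeric factors held in the cytoplasm by IkB proteins, and many of its own subunits, inhibitors and feedback regulators are its target genes. Of 21 members tested 11 were called higher and 0 lower, and the median log2 change was 1.84. Relb, the subunit of the non-canonical branch, read 4.37, 12.5 and 33.6 without treatment and 3159, 1447 and 723 with it. The groups are far apart on every date, date 3 least so, and the fitted change was 5.78 ± 0.75 (SE) (adjusted p = 0.00206). Traf1, an adaptor of TNF receptors, went from 27.7, 79.1 and 43.2 to 1337, 1382 and 564 (4.11 ± 0.56 (SE), adjusted p = 0.00245). Bcl3, a nuclear IkB protein, went from 178, 167 and 113 to 2331, 1392 and 982 (3.19 ± 0.48 (SE), adjusted p = 0.00394). In both genes the lowest treated array is several times brighter than the highest untreated one. Birc3, a ubiquitin ligase that restrains cell death downstream of TNF receptors, rose by 2.21 ± 0.22 (SE). The 11 became 5 without the knockout untreated array of date 1 or of date 3 and 7 without the treated array of date 2, and 6 without the block. Of the 18 members with a promoter window 9 held the kappa B consensus, against 10% of all windows.

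Chemokines and cytokines encode the secreted signals that recruit and instruct other immune cells. Of 16 chemokine genes tested 5 were called higher and 0 lower (median 1.63), and of 23 inflammatory and growth cytokines 4 were called higher and 0 lower (median 0.89). Ccl5, which attracts T cells and monocytes, read 4.13, 17 and 8.58 without treatment and 14135, 4826 and 512 with it. It was near the bottom of the scale on the untreated arrays, and its treated signals spread widely, with date 1 highest and date 3 lowest. The fitted change was 7.21 ± 1.11 (SE) (adjusted p = 0.00413), or 8.41 with a constant of 1 and 5.78 with 52. Cxcl10, an interferon-inducible ligand of CXCR3, went from 54.8, 105 and 105 to 13189.9, 3509 and 3716 (5.83 ± 0.95 (SE), adjusted p = 0.00542). Its treated signal on date 1 was the highest, and dates 2 and 3 were alike. Cxcl2, a neutrophil attractant, went from 190.1, 257 and 742 to 2229, 1525 and 4518 (2.85 ± 0.47 (SE), adjusted p = 0.006, or 0.102 without the block). The untreated array of date 3 was already high for Cxcl2, yet the groups did not overlap.

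Tnf, the founding cytokine of its family, read 164, 112 and 182 without treatment and 6113, 1263 and 5609 with it (4.44 ± 0.59 (SE), adjusted p = 0.00221). The treated array of date 2 was the lowest of the 3. Tnfsf9, the ligand of 4-1BB, went from 105, 33.9 and 107 to 695, 1100.4 and 1498 (3.60 ± 0.36 (SE), adjusted p = 0.000548). Ltb (lymphotoxin beta) rose by 3.72 ± 0.69 (SE) from dim signals of 14.7, 6.81 and 4.52, and Csf1, the macrophage growth factor, rose by 2.11 ± 0.36 (SE). On the probe sets that stood for these 4 genes no treated array overlapped the untreated ones. Other passing probe sets of Csf1 gave 0.16, 0.76 and 2.14. None of them was called in the fit across all passing probe sets (adjusted p = 0.784, 0.194 and 0.102). The chemokine count was 3 without the knockout untreated or the treated array of date 3 and 2 without the block, and both counts were higher without the 4 arrays of date 2 (9 and 8). The cytokine count was 4 to 6 when any 1 array was left out.

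**Figure D3:**
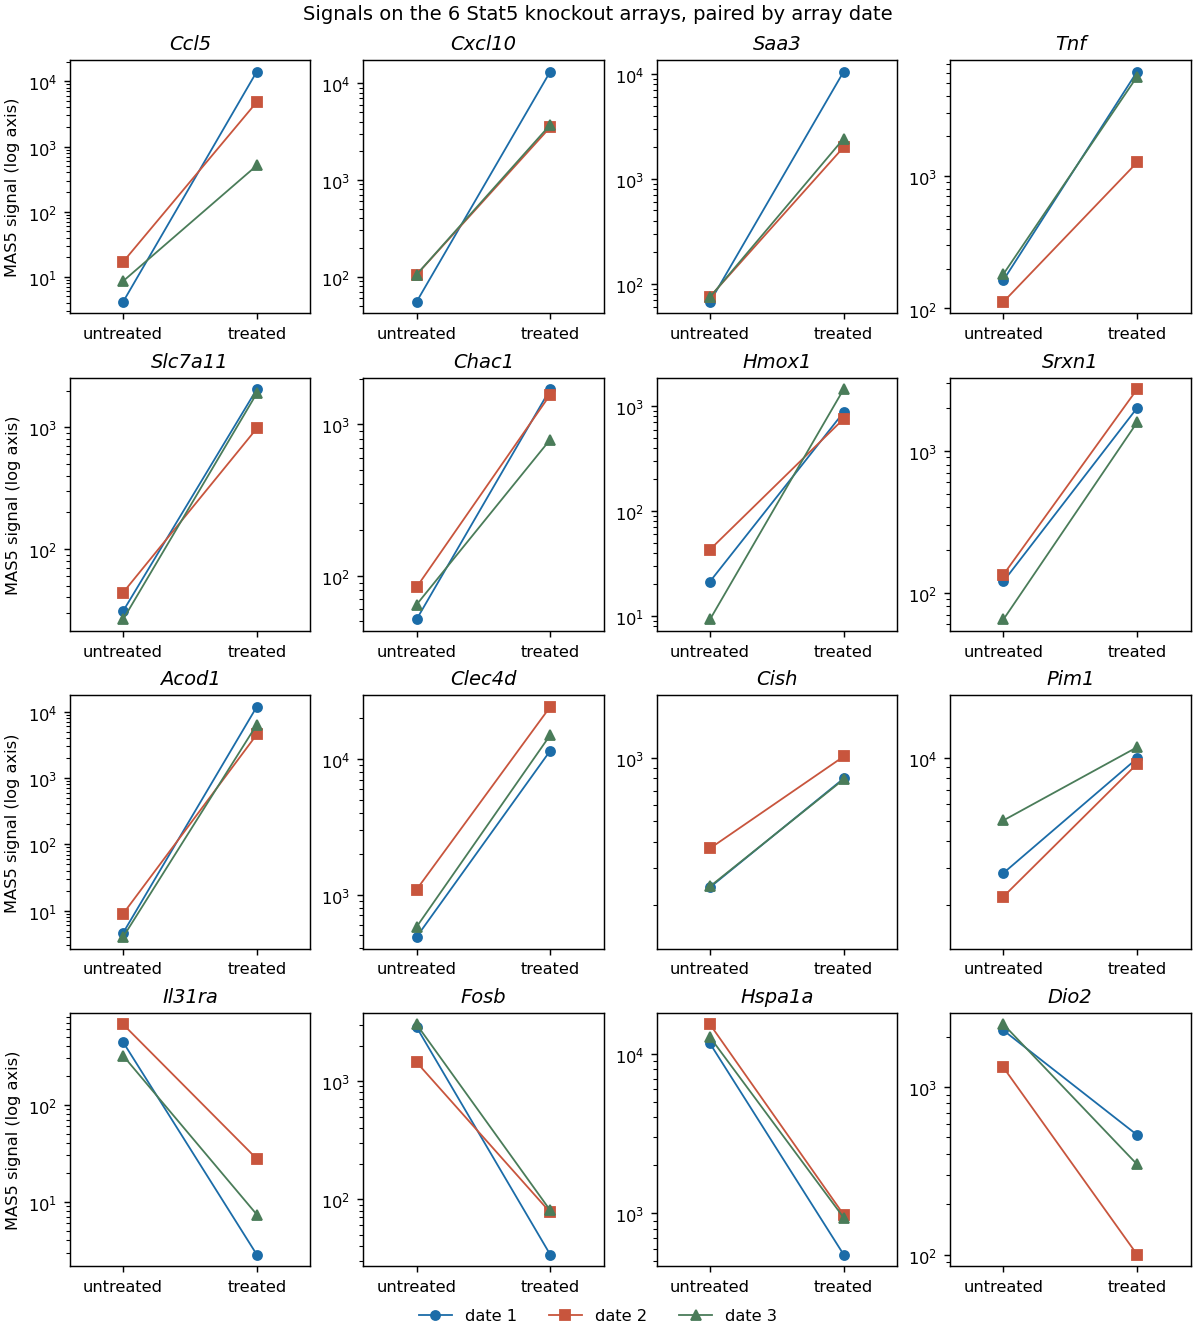
MAS5 signal (log axis) of 16 genes on the 6 knockout arrays, untreated on the left and treated on the right of each panel, with lines joining arrays of the same date. In the first 3 rows all treated points lie above all untreated points, and in the last row (Il31ra, Fosb, Hspa1a, Dio2) all lie below them.

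Acute phase genes encode secreted defence proteins, of which the serum amyloids are the best known. Of 13 tested 5 were called higher and 1 lower, with a median of 1.67. Saa3, the serum amyloid of macrophages and stroma, read 67.3, 75.4 and 74.7 without treatment and 10536, 2011 and 2422 with it. The untreated arrays agree closely, and the treated array of date 1 is the brightest (5.45 ± 0.66 (SE), adjusted p = 0.00136). Cd14, the co-receptor for bacterial lipopolysaccharide, went from 464, 631 and 1052 to 9637, 3749.7 and 12189.9 (3.47 ± 0.46 (SE), adjusted p = 0.00215). The count of 6 called became 3 without the knockout untreated array of date 2, 2 without the untreated or the treated array of date 3, and 2 without the block.

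Interferon-stimulated genes encode mostly antiviral proteins. Of 45 tested 6 were called higher and 1 lower, while 40 had a positive change and the median was 1.15. A positive change was found in 5700 of 11815 genes over all tested. Rsad2 (viperin, an antiviral enzyme) read 288, 306 and 269.6 without treatment and 19346, 10831 and 5192 with it (5.10 ± 0.78 (SE), adjusted p = 0.00404). The untreated arrays lay close together and the treated signals were highest on date 1 and lowest on date 3. Gbp2, a guanylate-binding protein, went from 263, 114 and 224 to 6365, 1211 and 1057 (3.33 ± 0.57 (SE), adjusted p = 0.00709, or 0.0599 without the block). The treated signals of dates 2 and 3 were alike, and that of date 1 was much higher. The count of 7 called was unstable: it was 12 and 11 without the control treated arrays of dates 1 and 2, 3, 2 and 3 without the knockout untreated arrays of dates 1, 2 and 3, and 4 and 2 without the knockout treated arrays of dates 1 and 2. It was 2 without the block. Of 36 members with a promoter window 17 held the interferon response element, against 3.07% of all windows.

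The amino acid response, also called the integrated stress response, runs through the factor ATF4, which raises transporters, synthesis enzymes and tRNA synthetases when amino acids are short or translation is stressed. Of 28 members tested 15 were called higher and 1 lower (median 1.37), and of 18 amino acid transporters 8 were called higher and 0 lower (median 0.85). Slc7a11, the cystine-glutamate exchanger that supplies cystine for glutathione, read 30.9, 43.9 and 26.4 without treatment and 2059.9, 980.5 and 1903 with it. The treated array of date 2 was the lowest, and it too lay far above every untreated array (5.10 ± 0.34 (SE), adjusted p = 0.000117). Slc7a3, a carrier of cationic amino acids, went from 39.2, 57.1 and 27.8 to 1164, 719 and 606 (3.93 ± 0.45 (SE), adjusted p = 0.00109). Slc6a9, a glycine transporter, went from 141, 173 and 139 to 738, 1107 and 676 (2.35 ± 0.25 (SE), adjusted p = 0.00067), and the groups were apart on every date.

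Among the stress effectors, Nupr1, a small chromatin-associated stress protein, read 11.4, 9.91 and 9.46 without treatment and 534, 1030.4 and 279.6 with it (4.57 ± 0.34 (SE), adjusted p = 0.000165). The untreated signals were at the bottom of the scale on all dates. Trib3, a pseudokinase, went from 14.7, 69.9 and 35.5 to 1738, 1327 and 790.1 (4.68 ± 0.63 (SE), adjusted p = 0.00228). Chac1, which degrades glutathione, went from 51.4, 83.9 and 64.3 to 1704, 1569 and 792 (4.05 ± 0.50 (SE), adjusted p = 0.00158). The treated array of date 3 was the lowest of its group for all 3 genes. Gpt2, a mitochondrial alanine transaminase, rose by 3.18 ± 0.22 (SE) with treated signals of 1211, 1168 and 1357. Of 19 cytosolic tRNA synthetases 5 were called higher and 0 lower, and Aars, which charges alanine tRNA, went from 2388, 2387 and 2407 to 6046, 7576 and 7404 (1.54 ± 0.24 (SE), adjusted p = 0.0041). The stress response count of 16 was 10 without the knockout untreated array of date 1 or 3 or the treated array of date 1 or 3. The transporter count of 8 was 4 without the untreated array of date 1 or 3 or the treated array of date 2, and 5 without the untreated array of date 2 or the treated array of date 3. The synthetase count of 5 was 3 without the control untreated array of date 1 or 3, 1 without the knockout untreated array of date 1 or 3, 3 without the treated array of date 1 and 2 without that of date 2 or 3. Without the block the 3 counts were 10, 4 and 1. The amino acid response element was in 5 of 25 stress response windows and 3 of 13 transporter windows, against 2.36% of all windows.

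The antioxidant genes under NRF2, a factor freed from its inhibitor by oxidants, were called higher in 9 of 26 cases and lower in 0 (median 0.74). Hmox1, the enzyme that breaks down haem, read 21.2, 42.9 and 9.23 without treatment and 878, 759 and 1456 with it. The groups were far apart, with the widest step on date 3 (4.84 ± 0.74 (SE), adjusted p = 0.004). Srxn1 (sulfiredoxin, which repairs peroxiredoxins) went from 120.03, 134 and 64.7 to 2011, 2728 and 1591 (4.17 ± 0.50 (SE), adjusted p = 0.00126). Sqstm1, the autophagy receptor p62, went from 1625, 501 and 1153 to 10572, 8489 and 11336 (3.34 ± 0.44 (SE), adjusted p = 0.00215, or 0.0547 without the block). The count of 9 was 6 to 9 when any 1 array was left out and 2 without the block. Of 22 genes of the unfolded protein response of the endoplasmic reticulum 3 were called higher and 1 lower, and the median was -0.13. That count of 4 was 1 without the knockout untreated array of date 1 or 3 or the treated array of date 3, 2 without the untreated or the treated array of date 2, and 1 without the block.

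Genes of monocytes and macrophages were called higher in 14 of 33 cases and lower in 1 (median 1.08). Lpl, the lipase that frees fatty acids from lipoproteins, read 612, 354 and 721 without treatment and 13143, 30804 and 16909 with it (5.11 ± 0.44 (SE), adjusted p = 0.000289). Clec4d went from 485, 1087 and 576 to 11553, 24419 and 15084 (4.56 ± 0.23 (SE), adjusted p = 2.42e-05). Lgals3 (galectin-3) went from 115, 1125 and 734 to 3466, 29985 and 9005 (4.36 ± 0.38 (SE), adjusted p = 0.000289, or 0.137 without the block). Both Clec4d and Lgals3 were brightest on date 2 in either group, and within each date the treated array was many times brighter. Genes of dendritic cells and antigen presentation were called higher in 8 of 21 cases and lower in 0 (median 0.69). Cd86, a costimulatory ligand, went from 38.1, 27.5 and 52.2 to 254, 269 and 459 (2.68 ± 0.31 (SE), adjusted p = 0.00112), and Cd83, a maturation marker, went from 13.9, 73.2 and 23.3 to 562, 467 and 230.3 (3.21 ± 0.47 (SE), adjusted p = 0.00353). The treated array of date 3 was the brightest for Cd86 and the dimmest for Cd83. The macrophage count of 15 was 9 without the knockout untreated array of date 3, 9 without the treated array of date 3 and 9 without the block. The dendritic count of 8 was 4 without the untreated array of date 1 or 3, and 5 without the block.

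Of 35 myeloid transcription factors 12 were called higher and 1 lower. Bhlhe40, a repressor that shapes macrophage and dendritic cell output, read 51.7, 8.86 and 63 without treatment and 423, 1050.2 and 1954 with it (4.35 ± 0.51 (SE), adjusted p = 0.00113). Maf, a factor of macrophage maturation, went from 17.1, 40.9 and 14.4 to 979, 319 and 534 (4.0 ± 0.50 (SE), adjusted p = 0.00176). Nab2, a co-repressor of EGR factors, went from 80.3, 46.7 and 8.03 to 913, 531 and 544 (3.74 ± 0.45 (SE), adjusted p = 0.00134). The 3 genes were dim on all untreated arrays and did not overlap between groups, and Id2, an inhibitor of basic helix-loop-helix factors, rose by 2.32 ± 0.32 (SE). Without 1 array the count of 13 was 8 (control untreated, date 1), 8 (control untreated, date 3), 8 (control treated, date 1), 8 (knockout untreated, date 1), 8 (knockout untreated, date 2), 7 (knockout untreated, date 3), 6 (knockout treated, date 2) or 7 (knockout treated, date 3), and it was 6 without the block.

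Several genes on the list of STAT5 and cytokine feedback targets rose in these cells. Of 26 tested 9 were called higher and 1 lower, with a median of 0.66, and the count was 8 to 11 when any 1 array was left out. The STAT motif was in 4 of 18 promoter windows of this list, against 6.84% of all windows. Cish, which encodes an inhibitor of cytokine receptors and is a standard readout of STAT5, read 243, 372 and 245 without treatment and 799, 1017 and 792 with it. The groups did not overlap and the step was alike on all dates (1.58 ± 0.26 (SE), adjusted p = 0.00551). Pim1, a survival kinase, went from 2827, 2185 and 5031 to 9920.3, 9336 and 11211 (1.68 ± 0.24 (SE), adjusted p = 0.00301). The untreated array of date 3 was the highest of its group, and it lay below all treated arrays. The other passing probe set of Pim1 was dimmer and gave 0.94 with overlapping groups. It was not called in the fit across all passing probe sets (adjusted p = 0.382). Cdkn1a, the cell cycle inhibitor p21, went from 1167, 456 and 643 to 7771, 11157 and 7158 (3.58 ± 0.32 (SE), adjusted p = 0.00036). Spred1, a brake on RAS signalling, rose by 2.32 ± 0.22 (SE) with treated signals of 2688, 4081 and 3472. Socs2, another feedback inhibitor, was dim with overlapping groups at 51.3, 119.6 and 80.2 and 77.1, 40.7 and 109 (-0.14 ± 0.36 (SE), adjusted p = 0.845), and its other 2 passing probe sets gave 0.39 (adjusted p = 0.558) and 0.79 (adjusted p = 0.176).

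Receptor chains differed in direction. Csf2rb2, the beta chain variant of the IL-3 receptor, read 271, 261 and 269 without treatment and 1544, 6533 and 2549.8 with it (3.41 ± 0.40 (SE), adjusted p = 0.0012). The untreated arrays were almost equal, and the treated array of date 2 was the brightest. Csf2rb, the shared beta chain, went from 4482, 2117 and 1946 to 7436, 9219.7 and 6325 (1.51 ± 0.28 (SE), adjusted p = 0.00943). That call was missed without the knockout untreated array of date 3 (adjusted p = 0.0535) and without the block (0.0506), and Csf2rb and Csf2rb2 are close copies whose probes may share transcripts. Il31ra, a receptor chain of the gp130 family, fell from 441, 673 and 320.2 to 2.86, 27.7 and 7.40 (-4.31 ± 0.68 (SE), adjusted p = 0.0045). It was readily detected on all untreated arrays and near the bottom of the scale on all treated arrays, and a second probe set of Il31ra gave -2.79 (adjusted p = 0.00298). Tnfrsf1b, a TNF receptor, rose by 1.73 ± 0.29 (SE) (adjusted p = 0.128 without the block). Of 26 receptor genes 5 were called higher and 2 lower, and the count of 7 was 4 without the knockout untreated or treated array of date 2, 3 without the untreated array of date 3 and 2 without the block. Of 17 JAK and STAT genes 4 were called higher and 0 lower, and Sh2b3 (LNK, an adaptor that restrains JAK2) went from 732, 877 and 651 to 2369, 5410.4 and 3012 (2.16 ± 0.28 (SE), adjusted p = 0.00206). Jak2 rose by 1.44 ± 0.28 (SE) (adjusted p = 0.011, or 0.0600 without the block). The JAK and STAT count of 4 was 2 without any 1 of the control untreated arrays, the control treated array of date 1 or 3, any knockout untreated array or the knockout treated array of date 2, and 1 without the block.

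Immediate early genes split into falls and rises. The AP-1 factors are dimers of FOS, JUN and MAF relatives, and several are induced soon after a stimulus. Of 30 tested 7 were called higher and 5 lower. Fosb fell from 2864, 1444 and 3022 to 33.9, 77.2 and 80.3, the largest fall of all genes (-4.99 ± 0.48 (SE), adjusted p = 0.000487). Jun fell from 6184, 1481 and 5072 to 1322, 158 and 546 (-2.84 ± 0.43 (SE), adjusted p = 0.00405), although date 2 was low in both groups and the call was lost without the block (0.314). Fosl1 rose from 26, 72.6 and 9.84 to 229, 570.4 and 353 (3.14 ± 0.38 (SE), adjusted p = 0.00134), and Maff rose from 8.02, 15 and 10.1 to 395, 212 and 593 (4.0 ± 0.47 (SE), adjusted p = 0.00117). The 2 genes that fell were bright before treatment and the 2 that rose were dim. The count of 12 was 6 without the knockout treated array of date 3 and 6 without the block.

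Heat shock genes fell in part. Of 26 chaperone genes 0 were called higher and 4 lower (median -0.19). Hspa1a, an inducible HSP70, went from 11623, 15322 and 12726 to 551, 981 and 939.5 (-4.02 ± 0.31 (SE), adjusted p = 0.000213). Its close copy Hspa1b went from 7903, 23835 and 11811 to 1029, 1340.3 and 1432 (-3.37 ± 0.50 (SE), adjusted p = 0.00353). The untreated arrays were all above the treated ones for both, and probes for these near-identical genes may read either transcript. Hspa2, a relative, fell from 449.7, 336 and 516 to 168, 105 and 109 (-1.68 ± 0.26 (SE), adjusted p = 0.00405). The count was 3 or 4 when any 1 array was left out.

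MAP kinase regulators were called higher in 7 of 19 cases and lower in 2. Dusp16, a phosphatase for JNK and p38, read 94.7, 3.67 and 77 without treatment and 1242, 706 and 851 with it (4.08 ± 0.65 (SE), adjusted p = 0.00496). Dusp4, a nuclear MAP kinase phosphatase, went from 18.2, 13.4 and 4.92 to 156, 219 and 558 (3.52 ± 0.64 (SE), adjusted p = 0.00923). Map3k8, the kinase TPL2 that couples NF-kB signals to ERK, went from 58.3, 88.5 and 70.4 to 1074, 556 and 582 (3.09 ± 0.45 (SE), adjusted p = 0.00353). The groups did not overlap for any of the 3, and for Dusp16 the untreated array of date 2 was far below its partners. Map2k6, a kinase that activates p38, fell from 451, 258 and 315 to 118, 11 and 42.6 (-2.63 ± 0.44 (SE), adjusted p = 0.00608, or 0.0846 without the block). The count of 9 was 6 to 10 when any 1 array was left out.

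Survival and death genes of both kinds were called, 11 of 24 higher and 1 lower (median 0.76). Trp53inp1, a p53-inducible gene that promotes cell death and autophagy, read 409, 443 and 463 without treatment and 2515, 6184 and 2809 with it (2.97 ± 0.34 (SE), adjusted p = 0.00112). Pmaip1 (NOXA, a BH3-only killer protein) went from 356, 144 and 484 to 2530.3, 485 and 4628 (2.56 ± 0.43 (SE), adjusted p = 0.00638, or 0.264 without the block). Trp53inp1 was nearly equal on the untreated arrays, whereas Pmaip1 was lower on date 2 than on the other dates in either group. The members that rose thus include killers (Pmaip1) and a protector (Birc3), as classed in textbooks. The count of 12 was 7 without the knockout untreated array of date 1, 6 without that of date 3 and 7 without the treated array of date 2 or 3, and 5 without the block.

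Cholesterol is made from acetyl units in a long enzyme chain and is also taken up from lipoproteins. Of 25 genes on the cholesterol synthesis and uptake list 10 were called higher and 0 lower (median 0.78). The called members include Abca1 and Insig1, which are not themselves synthesis or uptake genes. Msmo1, a sterol demethylating enzyme, read 324, 352 and 227 without treatment and 2347, 2042 and 1864 with it (2.76 ± 0.34 (SE), adjusted p = 0.0014). Cyp51 (lanosterol demethylase) went from 279, 228 and 437 to 898, 1320.1 and 1277 (1.88 ± 0.28 (SE), adjusted p = 0.00372). Neither gene overlapped between groups, and the treated arrays of Msmo1 were close to each other. Of 21 glycolysis genes 0 were called higher and 5 lower (median -0.42). Slc16a1, a lactate carrier, fell from 4258, 3535 and 3459 to 1451, 669 and 1906 (-1.59 ± 0.28 (SE), adjusted p = 0.00817, or 0.0524 without the block), and Pfkl (phosphofructokinase) fell by 1.49 (adjusted p = 0.00868, or 0.595 without the block). The cholesterol count of 10 was 5 without the knockout untreated array of date 3 and 6 without the treated array of date 2 or 3, and 4 without the block. The glycolysis count of 5 was 3 without the control untreated array of date 1 or 3, 3 without the knockout untreated array of date 2, 2 without that of date 3 and 3 without the treated array of date 2 or 3. Without the block 0 glycolysis genes were called.

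Ribosome biogenesis genes, which build the machinery of protein synthesis, were called lower in 9 of 51 cases and higher in 0, and 50 of the 51 had a negative change (median -0.55). Over all genes tested 5700 of 11815 had a positive change. Dkc1 (dyskerin, which modifies ribosomal RNA) read 9095, 9729 and 8238 without treatment and 3696, 3517 and 4819.8 with it (-1.18 ± 0.22 (SE), adjusted p = 0.0102, or 0.0526 in a fit of the knockout arrays alone). The untreated arrays lay close together and all exceeded the treated ones. Wdr12, an assembly factor of the large subunit, went from 3481, 2028 and 3494 to 1844, 487 and 1308 (-1.45 ± 0.25 (SE), adjusted p = 0.008, or 0.212 without the block). DNA replication genes were called lower in 6 of 43 cases and higher in 1 (median -0.46), and mitosis genes lower in 2 of 43 and higher in 0 (median -0.32). Over all genes 4.45% were called lower, and the mitosis share was near that. The replication-dependent histone gene H3c4 was among the largest falls of all genes, from 932, 1405 and 1419.6 to 169, 268 and 195 (-2.50 ± 0.30 (SE), adjusted p = 0.00139). Without 1 array the ribosome count of 9 was 14 (control treated, date 2), 4 (knockout untreated, date 1), 3 (untreated, date 2), 2 (untreated, date 3), 5 (knockout treated, date 1), 4 (treated, date 2) or 3 (treated, date 3), and 1 without the block. The replication count of 7 was 11 without the control treated array of date 2, then 1, 1 and 0 without the knockout untreated arrays of dates 1, 2 and 3, 0 without the treated array of date 2 and 4 without that of date 3. The mitosis count of 2 was 5 without the control treated array of date 2, 0 without the knockout untreated array of date 1 and 1 without that of date 2 or 3. Without the block neither list had a called member.

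Other large falls were in genes of varied roles. Chdh, the choline dehydrogenase, fell from 5717, 4876 and 5617 to 1683, 517 and 602 (-2.72 ± 0.35 (SE), adjusted p = 0.0018). Dio2, which activates thyroid hormone, fell from 2177, 1308 and 2365 to 518, 100.1 and 346 (-2.77 ± 0.42 (SE), adjusted p = 0.00404). Chst13, a chondroitin sulfotransferase, fell from 1986, 1447 and 2412 to 549, 93.5 and 527 (-2.59 ± 0.38 (SE), adjusted p = 0.00353). In the 3 genes the treated array of date 2 was the lowest and no groups overlapped. Srl (sarcalumenin, a calcium-binding protein) fell by 2.38, and the uncharacterised gene 0610040J01Rik fell by 3.17.

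None of the 13 tested markers of granulocyte-monocyte progenitors passed the test, and their median log2 change was -0.46. Only 2 of the 13, Mpo and Csf1r, had a positive change, against 5700 of 11815 over all genes. Mpo (myeloperoxidase) read 15309, 57458 and 18012 without treatment and 19054, 56165 and 20697 with it, and Elane (neutrophil elastase) read 8318, 21545 and 10746 and 8843, 8408 and 6277. Date 2 was the brightest for Mpo in both groups, and the groups overlapped for both genes. The log2 changes were 0.16 ± 0.25 (SE) (95% interval -0.39 to 0.71) and -0.68 ± 0.32 (SE) (95% interval -1.40 to 0.04). Csf1r, the receptor for macrophage growth factor, read 7017, 22285 and 10700.2 and then 10726, 30639 and 13095, a change of 0.45 ± 0.22 (SE) (adjusted p = 0.212), higher on each date but overlapping across dates. Csf3r, the G-CSF receptor, read 1906, 909 and 1243 and 1615, 564 and 1245, and Csf2ra, the private chain of the GM-CSF receptor, read 1339.9, 881 and 1099 and 1349.9, 519.8 and 766. Neither passed the test (adjusted p = 0.391 and 0.251). Kit, the stem cell factor receptor, and Cebpa, the factor that opens the granulocyte program, changed by -0.05 ± 0.35 (SE) and -0.66 ± 0.38 (SE) (adjusted p = 0.952 and 0.295).

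**Figure D4:**
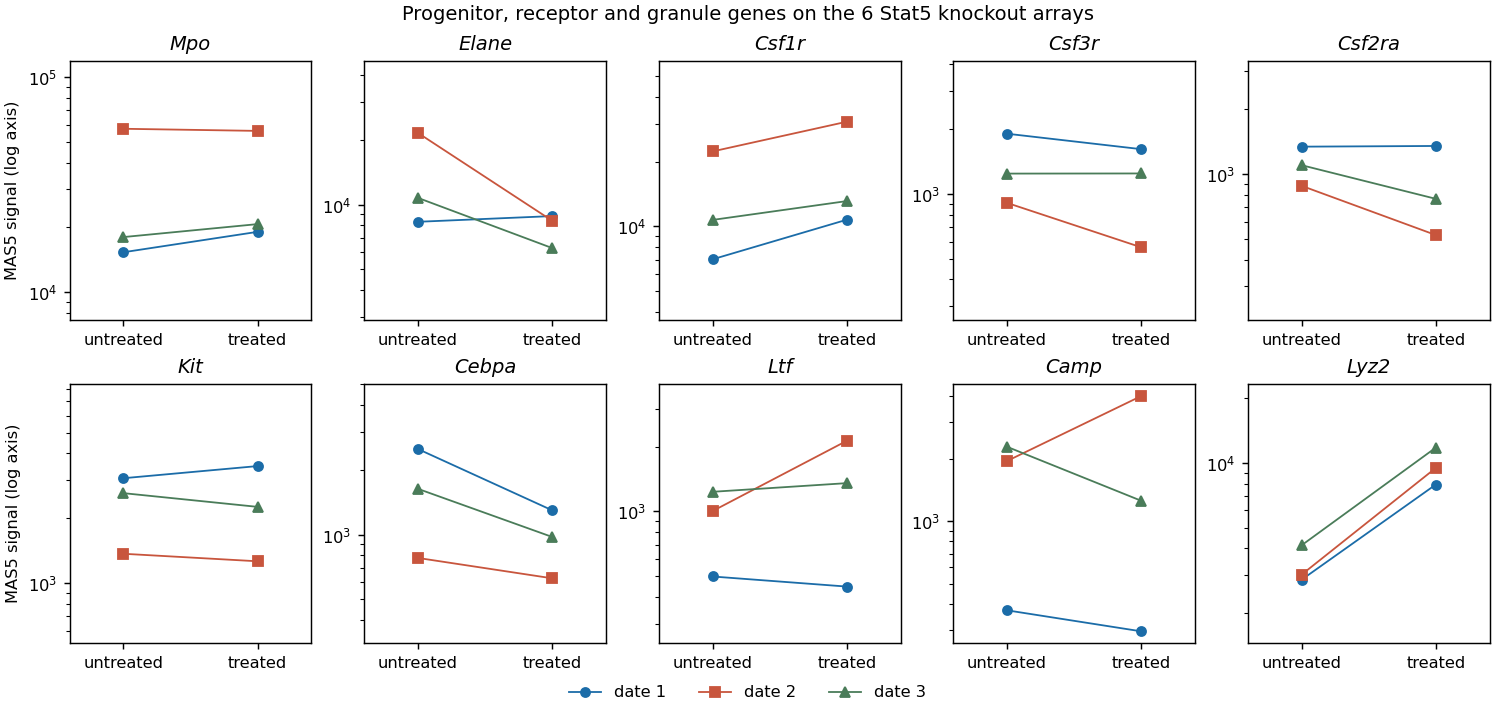
MAS5 signal (log axis) of 10 progenitor, receptor and granule genes on the 6 knockout arrays, untreated on the left and treated on the right, with lines joining arrays of the same date. Treated and untreated points overlap for all genes except Lyz2. In Mpo, Csf1r, Kit, Csf3r, Csf2ra and Lyz2 the dates stand in the same order on both sides.

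Granule genes encode the stored killing proteins of neutrophils. Of 17 primary granule genes 1 was called higher and 2 lower, and of 26 secondary and tertiary granule genes 2 were called higher and 0 lower. Over all genes 6.73% were called higher and 4.45% lower, and the shares called higher in both lists were near the former. Ltf (lactoferrin) read 497, 1002 and 1232 and 446, 2127 and 1352 and Camp (cathelicidin) read 373, 1950.4 and 2285 and 296, 4009 and 1256, with changes of 0.35 ± 0.55 (SE) and -0.05 ± 0.49 (SE) (adjusted p = 0.735 and 0.963). Both were lowest on date 1 in either group, and their groups overlapped. Lyz2 (lysozyme M) went from 2857, 3017 and 4132 to 7924, 9470.4 and 11769.7 (1.54 ± 0.33 (SE), adjusted p = 0.0173). The groups did not overlap, but the call was missed without the knockout untreated array of date 1 (adjusted p = 0.0553), 2 (0.0612) or 3 (0.0761), without the treated array of date 2 (0.0610) or 3 (0.0575) and without the block (0.0861). Clec11a, a haematopoietic growth factor listed with the primary granule proteins, fell from 334, 698 and 363 to 151, 125 and 122 (-1.64 ± 0.27 (SE), adjusted p = 0.00581). Arg2, a mitochondrial arginase listed with the secondary granule proteins, rose from 22.1, 37.7 and 30.3 to 1096, 456 and 650.1 (4.04 ± 0.44 (SE), adjusted p = 0.000838). Of 29 stem and early progenitor genes 2 were called higher and 2 lower, near the shares over all genes. That count of 4 was 0 without the knockout treated array of date 3 and 1 without that of date 2. It was 2 without the control untreated array of date 1 and 1 without the block. Without the knockout untreated arrays of dates 1, 2 and 3 it was 2, 2 and 1. The primary granule count of 3 was 1 without any 1 of the knockout untreated arrays or the treated array of date 2 or 3, 5 without the treated array of date 1 and 1 without the block. The secondary and tertiary count of 2 was 1 without the untreated array of date 2 or 3 or any treated array, and 1 without the block.

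The same comparison in control cells addresses which parts of the response take place with STAT5 present. In control cells 800 genes were called (6.77%), 497 higher (4.21%) and 303 lower (2.56%), and 589 genes were called in both genotypes, all 589 with the same sign. These are 44.6% of the genes called in knockout cells and 73.6% of those called in control cells. Of the 732 called in knockout cells and not in control cells 719 had the same sign in control cells. The control count was 237 to 371 without any 1 of 5 control arrays (all but the treated array of date 2), 531 and 526 without the knockout untreated and treated arrays of date 3, 165 without the block, 443 with no filter and 2388 with array weights, which is above the 2293 of knockout cells in that fit. The number called in both moved with it, from 191 (18.4% of the knockout and 80.6% of the control calls) without the control treated array of date 3 and 120 (41% and 72.7%) without the block to 1619 (70.6% and 67.8%) with array weights. Without the 4 arrays of date 2 it was 827 (59.7% and 72.2%). The 2 responses share no arrays but share the dates, and across genes their changes correlated with r of 0.806, 0.357 and 0.787 on dates 1, 2 and 3. On date 2, the date of the lowest correlation, the 3' to 5' ratio of Actb was high on all 4 arrays and higher in treated than in untreated control cells, as given above. The difference of the responses was tested directly, and 0 of 11815 genes passed (0%), with 291 at an unadjusted p under 0.05. Without date 2 again 0 passed, with 398 at that level. Both are smaller shares than a threshold of 0.05 gives on average when no gene differs. The 95% interval of a gene's difference reached a median of 0.911 to either side before adjustment over genes, and larger differences, such as that of Cish, did not pass the adjusted test.

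**Figure D5:**
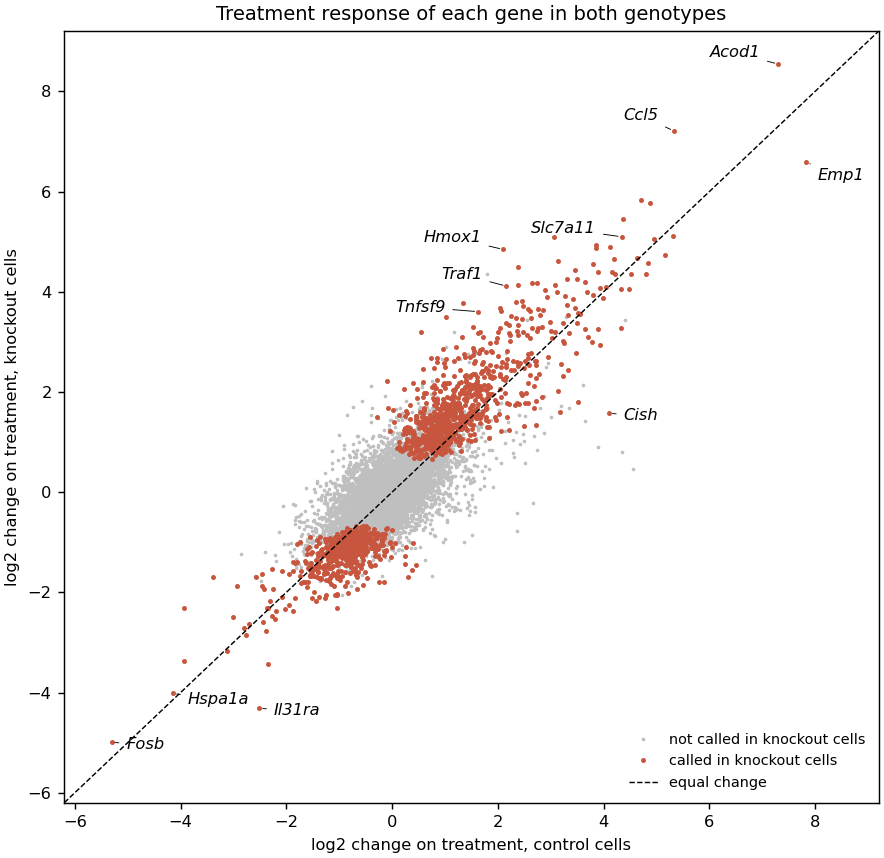
Log2 change on treatment of each of the 11815 genes in control cells (horizontal axis) and knockout cells (vertical axis), both on the log2(signal + 13) scale, with genes called in knockout cells in red and the dashed line marking equal change. Most called genes lie along the line, and Cish lies below it with 4.10 in control cells and 1.58 in knockout cells.

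Cish had the smallest adjusted p of the difference. In control cells it went from 188, 512 and 252 to 4853, 5294 and 5461, a change of 4.10 ± 0.26 (SE), and in knockout cells it changed by 1.58 ± 0.26 (SE). The difference was -2.53 ± 0.36 (SE) (95% interval -3.34 to -1.71, unadjusted p = 4.10e-05, adjusted p = 0.484), and with limma's array weights it was -2.84 ± 0.274 (SE) with an adjusted p of 0.0104. Without the arrays of date 2 it was -2.83 ± 0.281 (SE) (adjusted p = 0.126), and over all alternatives run the adjusted p ranged from 0.0104 to 1. The treated knockout arrays all lay below the treated control arrays, while the untreated arrays of both genotypes overlapped. For Socs2 the probe set with the highest mean signal gave a difference of -0.69 ± 0.51 (SE), whereas another probe set, which stood for the gene under the stricter filter on dim signals, gave -4.63 ± 0.489 (SE) with an adjusted p of 0.0189. In the fit across all passing probe sets that set had an adjusted p of 0.0713, and the remaining set gave -3.65 (adjusted p = 0.152). Pim1 changed by 1.60 ± 0.24 (SE) in control cells, a difference of 0.09 ± 0.34 (SE) (95% interval -0.66 to 0.84).

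Some genes changed more in knockout cells by estimate, without passing the adjusted test of the difference. Hmox1 changed by 2.10 ± 0.74 (SE) in control cells and 4.84 ± 0.74 (SE) in knockout cells, a difference of 2.74 ± 1.04 (SE) (unadjusted p = 0.0248, adjusted p = 1). Tnfsf9 changed by 1.63 ± 0.36 (SE) and 3.60 ± 0.36 (SE), a difference of 1.98 ± 0.51 (SE) (unadjusted p = 0.00295, adjusted p = 1). Traf1 changed by 2.16 ± 0.56 (SE) and 4.11 ± 0.56 (SE), a difference of 1.95 ± 0.79 (SE) (unadjusted p = 0.0337, adjusted p = 1). For Ccl5 the difference was 1.88 ± 1.57 (SE) (95% interval -1.61 to 5.37), for Saa3 1.07 ± 0.94 (SE) (-1.01 to 3.16), for Slc7a11 0.76 ± 0.48 (SE) (-0.31 to 1.82) and for Il31ra -1.80 ± 0.95 (SE) (-3.93 to 0.33), and each interval includes 0. Among the lists, NF-kB genes called higher numbered 4 of 21 in control cells (median 0.86) and 11 in knockout cells (median 1.84). Ribosome biogenesis genes called lower numbered 0 of 51 in control cells (median -0.18) and 9 in knockout cells (median -0.55). The STAT5 target list had 8 of 26 called higher in control cells (median 1.13) and 9 in knockout cells (median 0.66). Numbers called higher in control and knockout cells were alike for chemokines (5 and 5), cytokines (4 and 4), dendritic genes (8 and 8) and macrophage genes (15 and 14). They were further apart for survival and death genes (6 and 11) and antioxidant genes (5 and 9). Over all genes 4.21% were called higher and 2.56% lower in control cells, and 6.73% and 4.45% in knockout cells. Members with an unadjusted p under 0.05 for the difference of responses, in either direction, numbered 2 of 21 (NF-kB), 4 of 51 (ribosome biogenesis) and 7 of 26 (STAT5 targets). Over all genes they numbered 291 of 11815. These are counts and medians side by side, and no difference between the lists was tested.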

How the data were processed

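Expression was measured on 12 single-colour Affymetrix arrays in 4 groups of 3, of which the 6 knockout arrays are the subject. The values deposited by the authors are linear intensities of 45101 probe sets. MAS5 is the tool in the submitters' processing notes, and its version and scaling target are not given in the sources used here. The trimmed mean (2% at either end) of each deposited column lay between 500.003 and 500.004. Precision is limited by the number of arrays, and dim values are unstable because MAS5 takes off the mismatch signal.

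Platform annotation gave 1 gene symbol for 34945 probe sets, several for 932 and none for 9160, and 64 were controls; 34741 matched a RefSeq gene. Probe sets were kept if 3 or more arrays exceeded 70.5, the median of the whole table (21363 sets). The set with the highest mean log2 value stood for each of 11815 genes. Sets marked as cross-hybridizing (names ending in _x_at) were used only if no other set of the gene was kept. Values were log2(intensity + 13), computed from the deposited intensities; 13 is the 20th percentile of all values. limma 3.58.1 in R 4.3.3 fitted 4 groups with array date as a block on all 12 arrays, with Benjamini-Hochberg adjustment over all genes (threshold 0.05); "called" means past that threshold, and an adjusted p is from this fit unless an alternative is named beside it. The script was tested on simulated data. Motifs were searched in RefSeq promoter windows (GRCm38.p6). Python 3.11.15 with matplotlib 3.10.9 drew the figures.

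The block follows the dates in the titles. Deviations from group means correlated at 0.418, 0.552 and 0.564 for the 3 knockout pairs of a date, and at -0.661 to 0.399 for arrays of different dates and groups. The members, gene lists and tests were chosen with earlier results of these data known. Named genes followed a rule: the 15 largest rises and falls with 1 sign on all dates, up to 4 called members of each list with the largest changes (or, with none called, the 2 brightest members), the 10 smallest adjusted p with a log2 change of at least 1, up to 10 genes in each direction with a called difference of responses, and a set of progenitor, receptor and STAT5 genes. Of the 139 such genes, those whose call was kept with any 1 array left out are given first, a choice made after the values were seen. Alternatives left out the block, the control arrays, date 2 or single arrays, or used array weights, quantile normalization, other constants and filters, or the mean over probe sets.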

Additional observations from a re-analysis of the deposited data

How the results depend on the processing

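The counts of called genes moved with the processing, and 0 of the log2 changes of called named genes reversed sign under any alternative run. Without the replicate block 293 genes were called in knockout cells and 165 in control cells, and 79.2% of the 293 were higher, against 60.2% with it. With array weights, whose estimation stopped short of its tolerance, the counts were 2293 and 2388, and 1 difference of responses was called (Cish). With no filter on dim signals they were 797 and 443, the 6 knockout arrays alone gave 673, and the stricter filter called 1 difference (Socs2). Leaving out 1 array gave 470 to 1754 called genes in knockout cells, 237 to 1038 in control cells and 0 differences. Without the arrays of date 2, 1385 genes were called in knockout cells, 947 of them among the 1321. Quantile normalization gave 1323, of which 54.7% were higher. Constants of 52 and 1 gave 1517 and 1169, the stricter filter 1440 and the mean over probe sets 1450. Of 127 called named genes 85 kept their call with any 1 array left out, 113 without date 2, 77 without the block and 68 under every alternative run. Of 89 other passing probe sets of these genes 1 had the opposite sign (Sel1l), and it was not called. In the fit across all passing probe sets 43 of the 89 had the same sign and were called. The rest were not called, among them sets of Aqp9, Aars, Csf1, Pim1, Jun, Jak2 and Dio2. The cause of these moves was not tested. Signals near or below 13 limit the fold changes: 26 genes called higher had a mean untreated signal under 13, and 5 called lower a mean treated signal under it.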
